A study of Mus musculus with 6 samples.

Results

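P19 is a mouse embryonal carcinoma cell line that becomes neural when its cells are grown as aggregates with retinoic acid, and the aggregates give rise to neurons after they are plated on a surface. Retinoic acid acts through nuclear receptors that bind DNA, and among the genes it switches on are the early Hox genes and the enzymes that break it down. The amyloid precursor protein is cut by secretases, and the last cut frees its intracellular domain, AICD, into the cell. The results below describe what differed in P19 cells that express AICD between the aggregated state and the differentiated state that follows replating.

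The series holds 6 arrays of total RNA, covering 2 lines and 3 states with 1 array per line and state: undifferentiated, aggregated and differentiated. AICD/P19 cells express AICD, and pCDNA/P19 cells carry the vector alone; all are P19 cells grown in medium with fetal calf serum. Aggregated cells had been kept as aggregates for 4 days in all-trans-retinoic acid at 5e-07 M, and differentiated cells had then spent 2 days on culture dishes or on poly-L-lysine coated disks, with retinoic acid named for the aggregation only. The labels give no promoter, clone number or expression level for AICD and do not say whether any sample was a pool of cultures.

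The comparison is AICD/P19 differentiated against AICD/P19 aggregated, 1 array a side, both on the same slide. A level is the log2 processed signal of a gene's probe relative to the 75th percentile of its array, so that 0 is that percentile, and a difference is the differentiated level minus the aggregated level. The genes described are those whose probe the scanner software called well above background on at least 1 of both arrays: 12855 genes, out of 14014 that reached this on at least 1 of the 6 arrays. Among them 12070 were well above background on both AICD arrays, 571 on the differentiated array only and 212 on the aggregated array only. Another 2 genes had probes that differed in this. The dimmest probe well above background had a level of -5.74 on the aggregated array and -5.92 on the differentiated array.

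With 1 array a side there is no spread between cultures and no test. A gene is called higher or lower where the arrays differed by at least 2-fold, and "rose" and "fell" are used of such genes only. For a gene not well above background on an array, the fold is a lower bound, taken against the higher of that array's dimmest well-above-background signal and the gene's own signal there; the text then says at least so many fold. Probes spotted repeatedly on each array put the technical error of a difference at an SD of 0.143, and the 4310 genes with several probes had a median range of 0.21 between their probes' differences. Neither value covers variation between cultures. In RNA from a whole culture, fewer cells of a type and less RNA per cell cannot be told apart.

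The arrays had 62.0% (aggregated) and 65.2% (differentiated) of spots well above background, and no spot was saturated. Neuron markers were set beside the labelled neural induction, and 13 of 13 were well above background on both AICD arrays. In undifferentiated AICD cells 11 of the 13 were so already, so detection alone does not check the induction. On replating 4 of the 13 rose and none fell in the AICD line, with a median difference of 0.92, while 12 rose in the vector line. The summed signal of these markers, in units of each array's 75th percentile, was 18.4 in undifferentiated, 92.6 in aggregated and 169 in differentiated cells. The 31 ribosomal protein genes, a control list, all lay below 0, with a median difference of -0.80 in the AICD line and -0.89 in the vector line. That offset depended on scaling, with a median of -0.16 in the AICD line after quantile normalization. With genes ranked by level into 5 equal groups, the median difference ran from 0.03 in the dimmest group to -0.24 in the brightest.

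From aggregates to replated cells, 946 genes rose (7.36% of those compared) and 635 fell (4.94%). Of these, 807 and 543 were well above background on both arrays, and the other 139 and 92 are bounds. The counts were 468 and 393 under normexp background correction, and 1468 genes rose when dim probes were not filtered. A 4-fold difference was reached by 142 genes upward and 114 downward, and a 10-fold difference by 23 and 26. Most genes moved little: 66.3% of those on both arrays lay within 0.5 of 0, the median was -0.09, and levels on both arrays correlated across genes at r = 0.969. Just inside the 2-fold mark were Tyro3 at 1.0002 and Rnase1 at -1.0002, and just outside it were Sulf1 at 0.9991 and Tlcd1 at -0.9993. The count of each list below is to be read beside the shares over all genes, 7.36% higher and 4.94% lower.

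**Figure D1:**
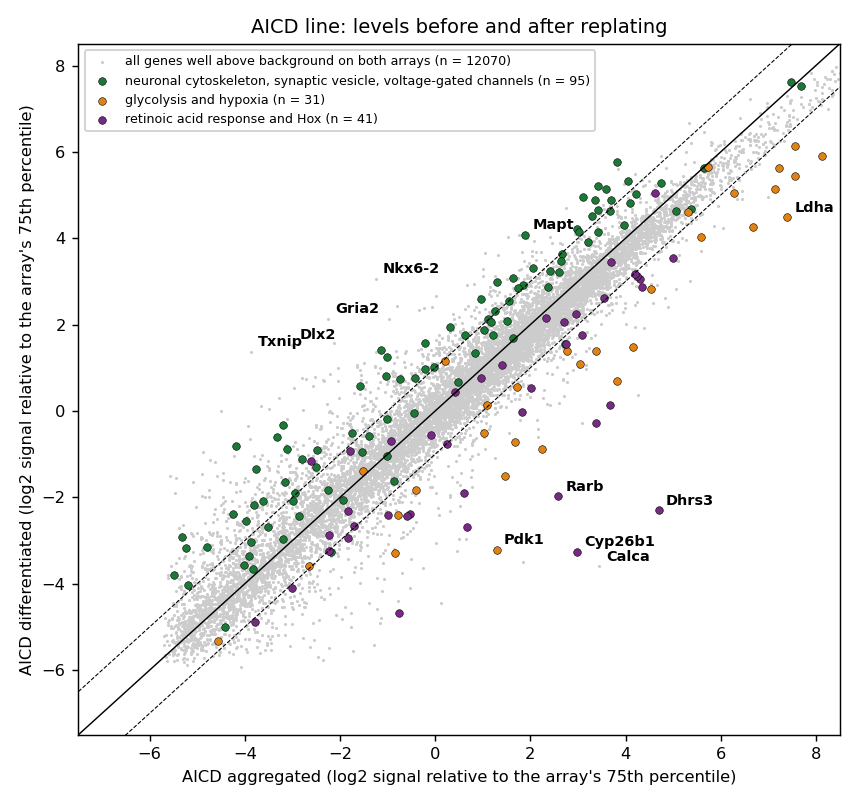
Level of each gene on the AICD aggregated array (x axis) against the AICD differentiated array (y axis), both on the log2 scale with 0 at the 75th percentile, for the 12070 genes well above background on both. The solid line marks equal levels and the dashed lines 2-fold; genes of the retinoic acid, Hox, glycolysis and hypoxia lists lie below the lower dashed line in many cases, and many neuronal genes above the upper one.

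Genes of the machinery that senses and removes retinoic acid had some of the deepest falls. Of 20 genes on the retinoic acid response list, 9 fell and 1 rose, with a median difference of -0.94, against -0.09 over all genes. With no filter on dim probes the list's median was -0.46. Dhrs3, a reductase that turns retinal back into retinol, had a level of 4.70 in aggregates and -2.30 after replating, a 128-fold fall. Cyp26b1, a cytochrome P450 that degrades retinoic acid, went from 2.99 to -3.26, a 76.1-fold fall. Both were among the 3 largest falls of genes measured on both arrays. Rarb, the receptor gene that retinoic acid itself induces, went from 2.58 to -1.97, which is 23.4-fold lower. Cyp26a1, the sister enzyme of Cyp26b1, went from 0.66 to -2.69, and Crabp2, which carries retinoic acid to its receptors, from 0.61 to -1.90. The gene on this list that rose was Rxrg, a partner receptor, with levels of -2.60 and -1.16 and a 2.71-fold difference.

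The undifferentiated AICD array, which lies on the other slide, gives the starting point of these genes. Of the 9 that fell, 8 had been higher in aggregates than in undifferentiated cells, 7 of them at least 2-fold, and 6 ended below their undifferentiated level. These counts take every signal as measured. Cdx2, among the 6, was not well above background in undifferentiated or in replated cells. Rarb was at -1.81 before retinoic acid and at -1.97 after replating, so its replated level was close to where it began. Dhrs3 was at 0.14 before retinoic acid and ended lower, at -2.30. Cyp26b1 was at -4.18 before and stayed somewhat above that, at -3.26. Withdrawal from the aggregates, plating, time in culture and any change in retinoic acid coincide in this step and cannot be told apart.

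The promoter of Rarb is shown because it carries the textbook retinoic acid response element, a direct repeat read by retinoic acid receptors. In the RefSeq sequence of build GRCm38.p6 it lies on the minus strand at chr14:16575427-16575726, from 250 bases before the gene's start to 50 after it. The capitals mark 2 GTTCA half-sites, each without its first base, with 6 bases between them. In full the half-sites read GGTTCA and AGTTCA, so the spacer of the element itself is a base shorter.

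Rarb: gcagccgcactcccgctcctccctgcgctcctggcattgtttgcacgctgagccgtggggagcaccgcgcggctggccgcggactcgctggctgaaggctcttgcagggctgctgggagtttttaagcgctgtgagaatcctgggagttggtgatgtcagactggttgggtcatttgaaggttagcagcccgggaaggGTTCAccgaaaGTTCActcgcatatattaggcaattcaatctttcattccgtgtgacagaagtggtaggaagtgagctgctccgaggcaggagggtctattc

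The match begins at position -52 from the start. This exact pair, on either strand, occurs in 25 of 32851 RefSeq promoters (0.0761%). Counting GTTCA or GGTCA at each half-site, the pair was found in 2 of the 7 retinoic acid genes that fell and have a promoter in the table, Rarb and Cyp26a1, against 73 of 27025 genes (0.27%). None of the 7 Hox genes that fell and have a promoter there held it. The search was chosen after the values were seen, and a match describes letters, not binding. The list was itself made of retinoic acid response genes, so its share of matches cannot be tied to the fall. Of the other motifs searched on both strands, GGAATG occurred 1 time in this window (14.7% of all promoters hold it), while the E-box form CAGCTG did not occur, nor did the E-box variant CAGATG, the related form CATATG, the Notch-effector motif GTGGGAA or 2 forms of the CArG box.

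The Hox genes, which set position along the body axis and open in order under retinoic acid, moved one way. Of 24 Hox genes, 17 fell and none rose, and all 23 that were well above background on both arrays had a difference below 0, with a median of -1.19. Hoxc5 went from -0.76 to -4.67, a 15-fold fall. Hoxd1 was at -0.84 in aggregates and not well above background after replating, a fall of at least 33.8-fold. Hoxb4 fell less, from 1.83 to -0.03. Of the 17, 14 still ended above their undifferentiated signal, which for some, such as Hoxc5, was not well above background.

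Cdx2, a regulator of posterior Hox genes, was at -1.45 in aggregates and not well above background in the other AICD states, a fall of at least 22.2-fold on replating. Both lines can be set side by side for the Hox list: over the 21 genes on all 4 arrays the medians were -1.19 in the AICD line and -1.04 in the vector line. Hoxc5 had differences of -3.91 and -4.09 in the respective lines.

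**Figure D2:**
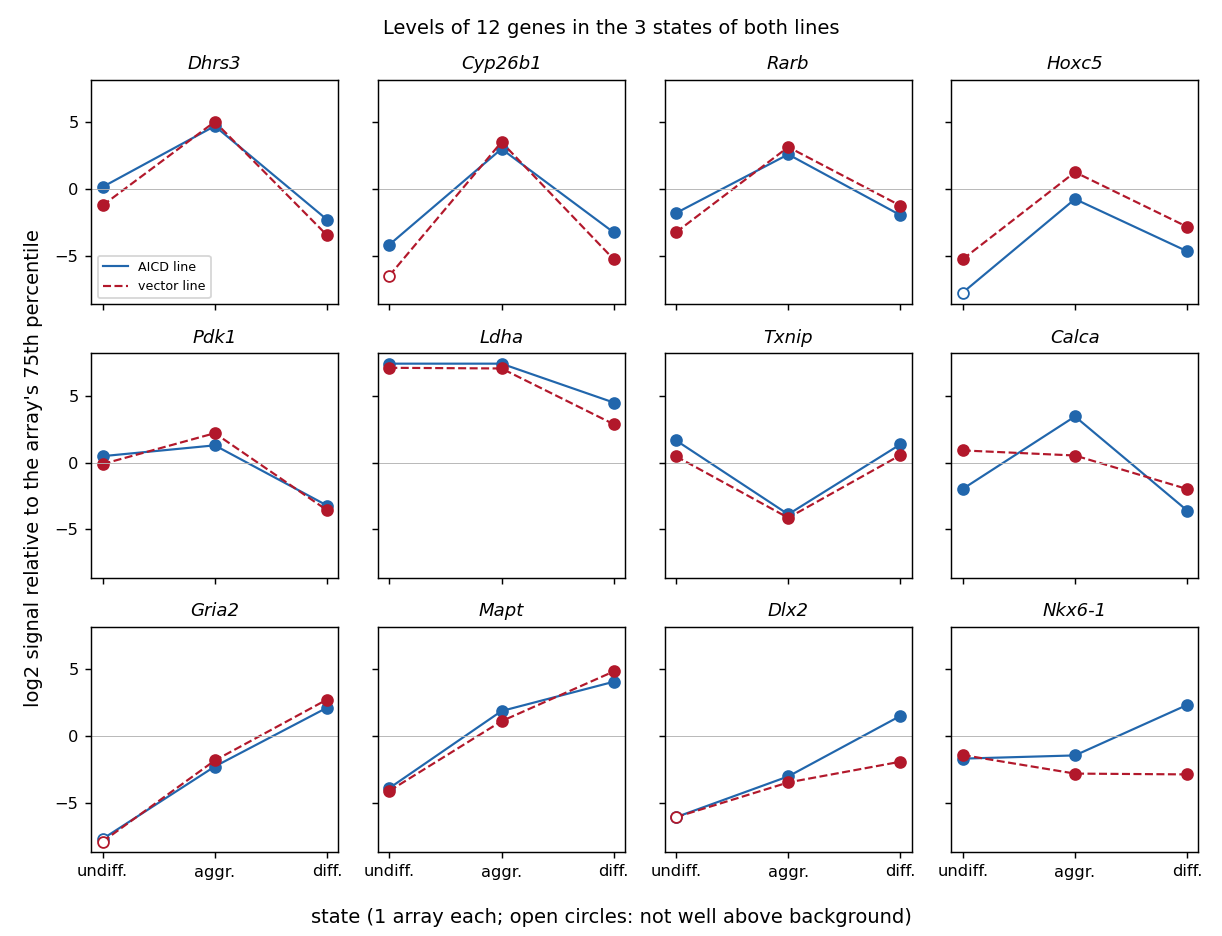
Levels (log2, with 0 at each array's 75th percentile, y axis) of 12 genes in the undifferentiated, aggregated and differentiated states (x axis), 1 array a point, with the AICD line in blue and solid and the vector line in red and dashed; open circles were not well above background. Rarb peaks in aggregates and returns to -1.97 in the AICD line, Txnip does the reverse, Gria2 and Mapt climb throughout, and Nkx6-1 ends high in the AICD line only, at 2.35 against -2.85.

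Genes of glycolysis and of the hypoxia response mostly fell. Of 31 genes, 24 fell and none rose, with a median difference of -1.62, which stayed between -1.71 and -1.56 under every alternative processing tried. Pdk1, a kinase that inhibits pyruvate dehydrogenase, went from 1.29 to -3.21, a 22.7-fold fall. Pfkl, the liver-type phosphofructokinase of glycolysis, went from 3.82 to 0.69 and fell 8.76-fold. Ndrg1, a stress gene induced by low oxygen, went from 2.24 to -0.89 and fell 8.77-fold. Ankrd37, another gene induced by low oxygen, went from 1.46 to -1.50 and fell 7.82-fold. Ldha, which converts pyruvate to lactate, was at 7.40 in aggregates and 4.49 after replating, a 7.54-fold fall.

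Other genes of glycogen and glucose handling moved in either direction. Ppp1r3c, which targets a phosphatase to glycogen, went from -1.29 to -5.41, a 17.4-fold fall, and Hk3, a hexokinase, from -1.72 to -5.56, a 14.3-fold fall. Txnip, which limits glucose uptake and binds thioredoxin, did the opposite and was the largest rise among genes on both arrays, from -3.87 to 1.37 or 37.7-fold. Its undifferentiated level was 1.66, so it was low in aggregates only. Members of the list that did not fall 2-fold include Pfkp, the platelet phosphofructokinase, at 0.20 and 1.15. Of 13 reference genes 3 fell: Gapdh and Pgk1, which belong to the glycolysis list, by 1.42 and 2.13, and the elongation factor Eef2, which does not, by 1.05. By contrast Actb, at -0.28, and Ywhaz, at 0.13, stayed within 2-fold.

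The undifferentiated levels were mixed for this group. Of the 24 that fell, 13 had been higher in aggregates than in undifferentiated cells and 7 of them at least 2-fold higher, and 18 ended below their undifferentiated level. Ldha stood at 7.40 in both earlier states.

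A pair of promoters of genes that fell is shown, Ankrd37 from the list and Ppp1r3c from outside it. Capitals mark the short core that hypoxia-inducible factors are known to read, ACGTG or GCGTG on either strand (overlapping matches run together). Both are RefSeq sequences of build GRCm38.p6 on the minus strand, Ankrd37 at chr8:45999801-46000100 and Ppp1r3c at chr19:36736555-36736854, each from 250 bases before the start to 50 after it.

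Ankrd37: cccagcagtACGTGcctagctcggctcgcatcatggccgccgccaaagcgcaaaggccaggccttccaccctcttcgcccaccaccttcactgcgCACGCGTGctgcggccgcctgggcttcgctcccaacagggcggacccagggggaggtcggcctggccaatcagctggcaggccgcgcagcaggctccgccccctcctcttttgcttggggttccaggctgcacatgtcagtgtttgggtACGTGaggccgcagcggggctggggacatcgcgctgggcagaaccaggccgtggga
Ppp1r3c: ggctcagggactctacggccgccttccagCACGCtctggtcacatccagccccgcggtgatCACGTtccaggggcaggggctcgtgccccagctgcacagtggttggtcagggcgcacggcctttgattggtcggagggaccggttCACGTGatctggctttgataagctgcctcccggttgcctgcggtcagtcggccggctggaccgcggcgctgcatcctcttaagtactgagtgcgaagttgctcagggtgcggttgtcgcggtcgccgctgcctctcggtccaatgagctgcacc

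Counted from the start, the first and last matches begin at -241 and -6 in the Ankrd37 window and at -221 and -103 in the Ppp1r3c window. The number of matches varied between windows, and that of Pfkl held 1, a GCGTG. Genes that did not fall held matches too. The window of Dlx2, which rose, held 4 ACGTG and 2 GCGTG, counted on both strands. That of Pfkp held 4 GCGTG. Of the 24 listed genes that fell, 23 have a promoter in the table and 20 of these held the core, where 46.7% of all 27025 genes do. Both windows shown also hold CAGCTG, as 16.3% of all promoters do. The form ACGTG alone was in 17 of the 23, where 21.8% of all genes hold it. These shares were not matched for base composition, and the search was chosen after the values were seen. The list was itself made of glycolysis and hypoxia genes, and its members that did not fall were not counted. The shares therefore cannot be tied to the fall.

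Neuronal genes were called higher more often than lower in most of the groups listed, from cytoskeleton to channels. Of 32 neuronal cytoskeleton genes, 17 rose and none fell, with a median difference of 1.08. Dclk1, a doublecortin-like kinase of microtubules, went from -1.13 to 1.41, a 5.82-fold rise. Mapt, which encodes tau, went from 1.89 to 4.08, a 4.55-fold rise. Stmn4, a stathmin that regulates tubulin, went from 3.83 to 5.76, a 3.81-fold rise. Dcx, which marks young migrating neurons, went from 3.36 to 4.89 and rose 2.89-fold. Tubb3, the neuron-specific tubulin, was already at 4.74 in aggregates and reached 5.28, a difference of 0.53 that is under 2-fold.

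RNA-binding proteins of neurons shifted the same way, with 6 of 16 higher, none lower and a median of 0.94. Celf4 went from 0.93 to 2.66 and rose 3.30-fold. Khdrbs2, a splicing regulator, went from -3.45 to -1.75 and rose 3.25-fold. The repressor of neuronal splicing Ptbp1 had a difference of -0.86, which is under 2-fold.

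At the synapse, 22 of 44 vesicle and granin genes rose and 2 fell, with a median of 1.0. Syt4, a synaptotagmin of secretory vesicles, went from -4.19 to -0.81 and rose 10.4-fold. Snap25, part of the fusion complex, went from -5.33 to -2.93 and rose 5.30-fold. Scg2, a granin of dense-core vesicles, was not well above background in aggregates and was at -2.23 after replating, a rise of at least 8.91-fold. The members that fell were the synuclein genes Sncg, from -2.19 to -3.27 and Sncb, from -4.21 to a signal not well above background, at least 3.29-fold lower.

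Genes for inhibitory and excitatory transmission were called higher more often than lower. On the GABA and glycine list 10 of 18 rose and 1 fell, and on the glutamate list 9 of 22 rose and none fell. Of these members 12 and 17 were well above background on both arrays, with medians of 0.86 and 1.11. Under normexp background correction the medians were 0.25 and 0.64. Gad1, which makes GABA, was not well above background in aggregates and was at -2.05 after replating, a rise of at least 12.9-fold. Gad2, its partner enzyme, went from -3.25 to -1.03 and rose 4.66-fold. The precursor of the peptide nociceptin, Pnoc, went from -4.89 to -0.95, a 15.3-fold rise.

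Gria2, the AMPA receptor subunit that limits calcium entry, went from -2.26 to 2.14, a 21.0-fold rise. Gria3 went from -4.22 to -1.04 and rose 9.09-fold, though its probes ranged from 1.39 to 3.18. Slc17a6, the vesicular glutamate transporter of subcortical neurons, went from -0.98 to 2.14 and rose 8.71-fold. Cholinergic and monoamine genes did not share this: 1 of 18 rose and 3 fell, with a median of -0.50, and Th, the enzyme that starts dopamine synthesis, went from -4.02 to a signal not well above background.

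Of 26 voltage-gated channel genes, 16 rose and 1 fell, with a median of 1.43. That median was 0.53 under normexp background correction and 0.96 with no filter on dim probes. Scn2a, a neuronal sodium channel, went from -3.32 to -0.61 and rose 6.51-fold on its brightest probe, while the differences of its probes ranged from 0.02 to 2.81. Scn3b, a sodium channel beta subunit, went from -3.77 to -1.34 and rose 5.41-fold. Cacnb4, a calcium channel beta subunit, was not well above background in aggregates and reached -3.16, at least 6-fold. The member that fell was Cacna2d2, by 1.16, and its direction turned to 1.29 when the gene's probes were averaged.

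Axon guidance genes moved in both directions. Of 49, 14 rose and 5 fell, with a median of 0.44. Chl1, an adhesion molecule of the L1 family, was not well above background in aggregates and reached -0.62, a rise of at least 34.9-fold. Plxna4, a semaphorin receptor, went from -3.28 to 0.29, an 11.8-fold rise with its probes between 1.42 and 3.56. Sema3a, a repulsive ligand, went from -4.19 to -1.68 and rose 5.69-fold. Among those that fell were the netrin receptor Unc5a, by 2.77, and the Sonic hedgehog co-receptors Boc and Cdon, by 2.09 and 1.47.

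Among transcription factors that choose or fix neuronal identity, 21 of 61 rose and 5 fell, with a median of 0.58. Dlx1 and Dlx2, which specify forebrain inhibitory neurons, were among the largest rises. Dlx2 went from -3.0 to 1.53, a 23.1-fold rise, and Dlx1 from a signal not well above background to -0.13, at least 48.9-fold. Tal2, a midbrain factor of inhibitory neurons, went from -2.52 to 0.78 and rose 9.85-fold. Pou4f2, a factor of retinal and sensory neurons, was not well above background in aggregates and reached -3.18, at least 5.91-fold. The early proneural factor Neurog1 fell from -1.09 to -2.66, and Ptf1a, which specifies inhibitory neurons of the hindbrain and cord, fell from -1.50 to a signal not well above background, at least 21.5-fold.

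Neural progenitor genes fell more often than they rose, 9 against 2 of 32, with a median of -0.38. Dorsal genes were among those that fell: Pax3 went from 0.45 to -3.24, a 12.9-fold fall, and Msx1 from -0.50 to -3.44, a 7.70-fold fall. Not all that fell were dorsal genes. Hes3 fell by 2.85, and the Notch effector Hes1 by 1.46, from -0.83 to -2.29. On the Notch list 1 of 25 genes rose (4%) and 3 fell (12%), beside 7.36% and 4.94% of all genes. Both progenitor genes that rose are homeobox genes of the ventral neural tube, though Olig2, also ventral, had a difference of 0.78, under 2-fold. Nkx6-2 went from -1.25 to 3.06, a 19.8-fold rise, and Nkx6-1 from -1.43 to 2.35, a 13.7-fold rise. Nkx6-2 was also at 3.21 in undifferentiated AICD cells, so its low point was the aggregate.

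Genes of the Wnt, BMP and hedgehog pathways, which pattern the neural tube, fell more often than they rose. Of 37 Wnt, BMP and hedgehog genes, 16 fell (43.2%) and 3 rose (8.11%), with a median of -0.55. Over all genes 4.94% fell and 7.36% rose. Sp5, a direct Wnt target, went from -0.56 to a signal not well above background, at least 41.2-fold lower. Wnt1, the roof-plate ligand, went from -1.17 to -4.92, a 13.5-fold fall. Id3, a BMP target that blocks proneural factors, went from 4.26 to 0.37, a 14.8-fold fall. Outside this list, Lefty1, an antagonist of Nodal counted with the pluripotency genes, went from 1.84 to -3.49, a 40.2-fold fall.

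The largest fall among genes well above background on both arrays was that of a peptide gene. Calca, which encodes calcitonin and the peptide CGRP, went from 3.45 in aggregates to -3.59, a 132-fold fall, with its probes between -7.04 and -4.25. In the vector line Calca was at 0.53 and -1.98, a difference of -2.51. Nppc, the C-type natriuretic peptide, went from 0.13 to -4.45 and fell 23.8-fold, and Fndc5, the irisin precursor, from 2.61 to -1.96 and fell 23.7-fold.

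Several of the largest rises fell in no list. Mab21l2, a gene of eye and midbrain development, went from -4.51 to 0.0, a 22.9-fold rise that was larger still in the vector line, at 7.03. Sema4a, a membrane semaphorin, went from -3.67 to 0.11 and rose 13.7-fold. Fgd5, an exchange factor for a small GTPase, went from -2.13 to 1.58 and rose 13-fold. These 3 rose in both lines, whereas 2 others had no measured counterpart in the vector line. Il20ra, a cytokine receptor subunit, was at 0.15 in undifferentiated AICD cells, not well above background in aggregates and at -1.33 after replating, a rise of at least 21.2-fold, and it was not well above background on either vector array of the step. Nap1l5, an imprinted nucleosome assembly gene, went from -5.46 to -1.89, an 11.8-fold rise, and was likewise not well above background on those vector arrays. Inhba, the activin subunit, rose at least 12.6-fold to -2.09 and had a difference of 3.68 in the vector line. Fcgrt, the neonatal Fc receptor, was at -1.80 in aggregates and fell at least 17.4-fold, where the vector line fell at least 79.2-fold.

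Cell cycle genes were lower in level but mostly within 2-fold. Of 42, 5 fell and none rose, with a median of -0.72, beside -0.80 for the ribosomal control list. After quantile normalization these medians were -0.58 and -0.16. Ccnd2, a D-type cyclin of neural progenitors, went from 5.36 to 3.0, a 5.11-fold fall, and Ccnd3 fell by 1.59. Of 15 inhibitors of the cell cycle, 3 fell and none rose. Cdkn1c, an imprinted inhibitor that acts as neurons leave the cycle, went from -1.14 to -4.80, a 12.6-fold fall, where the vector line had a difference of 0.18.

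Pluripotency genes showed no common direction. Pou5f1, which encodes Oct4, had levels of 6.48, 3.19 and 3.25 in undifferentiated, aggregated and replated AICD cells, so the step added 0.06. In the vector line it was at 6.37, -2.40 and -0.64. Over the list 4 of 26 rose and 4 fell, with a median of 0.16 whose sign depended on the processing. Lin28a, which blocks maturation of let-7 microRNAs, went from -1.64 to 1.02, a 6.34-fold rise, where the vector line had a difference of 0.27. Gdf3, a growth factor of pluripotent cells, had levels of 0.82 and 1.66, a difference under 2-fold.

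Markers of other cell types were measured in part. Of 9 mesenchymal markers, 2 were not well above background on either AICD array, and of the other 7, 1 rose and 1 fell. Their summed signal, in units of the array's 75th percentile, was 1.37 before and 0.715 after replating. In the vector line 7 of 9 such markers rose. Of 7 endoderm markers 5 were not well above background on either AICD array, as were 4 of 6 of endothelium and blood, 3 of 7 of muscle, 2 of 5 of astrocytes and 2 of 5 of the oligodendrocyte lineage on the array. Of the 4 muscle markers measured 2 rose, the myosin genes Myh7 and Myh6. Myh6 was not well above background in aggregates and reached -4.72, at least 2.03-fold higher. The summed signal of the muscle markers went from 0.878 to 1.68. The summed signal went from 8.21 to 10.4 for the oligodendrocyte lineage and from 2.54 to 2.15 for astrocytes, and no marker of either rose or fell. The part of any of these cells in the results was not tested.

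Matrix genes changed unevenly. On the fibrillar collagen and matrix list 4 of 29 rose and 6 fell, with a median of -0.34. Dcn, the proteoglycan decorin, went from -1.23 to -4.58, a 10.2-fold fall, and Col6a1 from -3.86 to a signal not well above background, at least 4.03-fold lower. Thbs1, a matrix glycoprotein, went from -4.90 to -1.46, a 10.8-fold rise, and Spp1, osteopontin, from -3.49 to -1.33, a 4.49-fold rise. Ccn2, a matrix-associated target of YAP, went from 3.09 to -0.29 and fell 10.4-fold.

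The APP family is the source of the expressed fragment. App went from 0.93 to 2.03 in the AICD line, a 2.16-fold rise, and from 1.42 to 2.86 in the vector line, a difference of 1.44. Aplp1, a neuronal relative, went from 1.92 to 3.36 and rose 2.70-fold. They were the 2 of 18 family and secretase genes that rose (11.1%), and none fell. Over all genes 7.36% rose and 4.94% fell, so these counts do not set the list apart. Where the App probe lies relative to the expressed fragment was not established, so it does not check the transgene.

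The same step in the vector line, on arrays of the same slide, gave 1552 genes higher (11.9% of 13021) and 1498 lower (11.5%). No array is common to both steps. Over the 11800 genes on all 4 arrays the steps correlated at r = 0.81 (Spearman rho 0.80), a description across genes that share platform and slide. The AICD step was the smaller one: the SD of differences was 0.71 against 1.02, and the median size of a difference 0.34 against 0.49. Of the 757 genes that rose in the AICD line, 595 also rose in the vector line, which is 78.6% of the AICD genes and 46.1% of the vector genes. Of the 503 that fell, 368 also fell there, which is 73.2% and 27.5%.

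**Figure D3:**
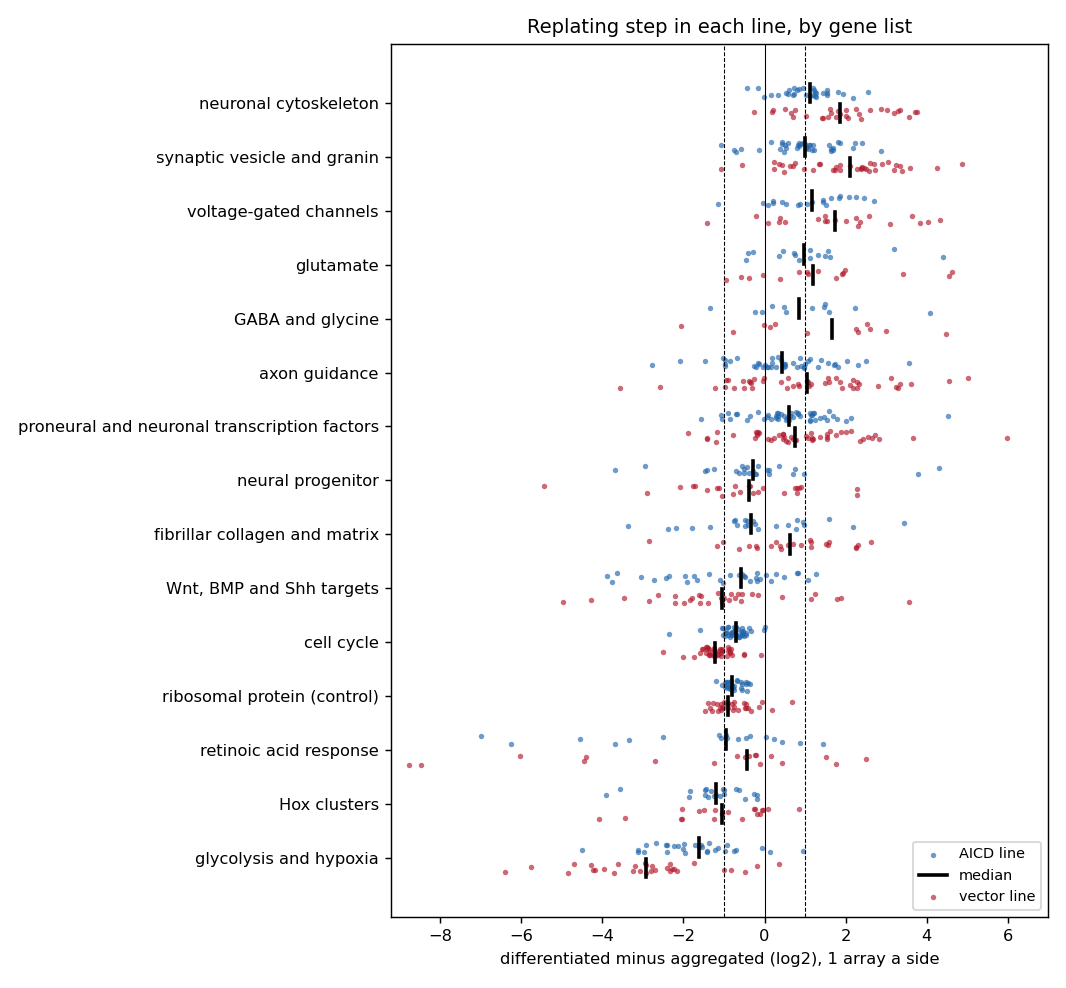
Differentiated minus aggregated level (log2, x axis) for each list member well above background on all 4 arrays, in the AICD line (blue) and the vector line (red), 1 array a side; black bars are medians and dashed lines mark 2-fold. The cytoskeleton medians are 1.12 and 1.87, the glycolysis and hypoxia medians -1.62 and -2.93, and the Hox medians -1.19 and -1.04.

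The count of genes with the smaller step in the AICD line varied by list. In the cytoskeleton list 29 of 31 genes had a smaller step in the AICD line, with medians of 1.12 and 1.87. In the synaptic vesicle list this held for 33 of 39, with medians of 0.99 and 2.11, and in the cell cycle list for 40 of 42, with medians of -0.72 and -1.22. In the glycolysis and hypoxia list it held for 29 of 31. In the Hox list 9 of 21 had the smaller step in the AICD line, and in the cholesterol and fatty acid synthesis list 8 of 30. Among the control lists it held for 12 of 13 reference genes and 18 of 31 ribosomal protein genes. Over all genes on the 4 arrays the median size of a difference was 0.34 in the AICD line and 0.49 in the vector line. A smaller AICD step is therefore not particular to the lists named here. The share of all genes with the smaller step in the AICD line was not counted. Whether any list's count departs from that share is therefore not known. No test of these differences is possible with 1 array each.

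Homeobox and transport genes were among those whose AICD step lay above the vector step. Nkx6-1 rose by 3.78 in the AICD line, where the vector line had a difference of -0.05, from -2.79 to -2.85. Nkx6-2 rose by 4.31 where the vector line had 0.74, and Dlx2 by 4.53 where it had 1.55. The glucose transporter Slc2a3 had a difference of -0.71 in the AICD line and fell by 4.69 in the vector line, and the lactate exporter Slc16a3 had differences of -2.44 and -6.41. Slc16a3 had started at -0.84 in AICD aggregates and at 3.89 in vector aggregates.

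Peptide genes were among those whose AICD step lay below the vector step. Adcyap1, which encodes the peptide PACAP, had a difference of -0.61 in the AICD line and rose by 4.77 in the vector line. Nts, neurotensin, had -0.09 and rose by 3.80, and was at -1.30 in AICD aggregates against -5.59 in vector aggregates. Tlx1, a homeobox gene of spinal interneurons, rose in both lines, by 2.00 and 5.97. Fgf12, an intracellular modulator of sodium channels, rose by 1.84 and 5.76.

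**Figure D4:**
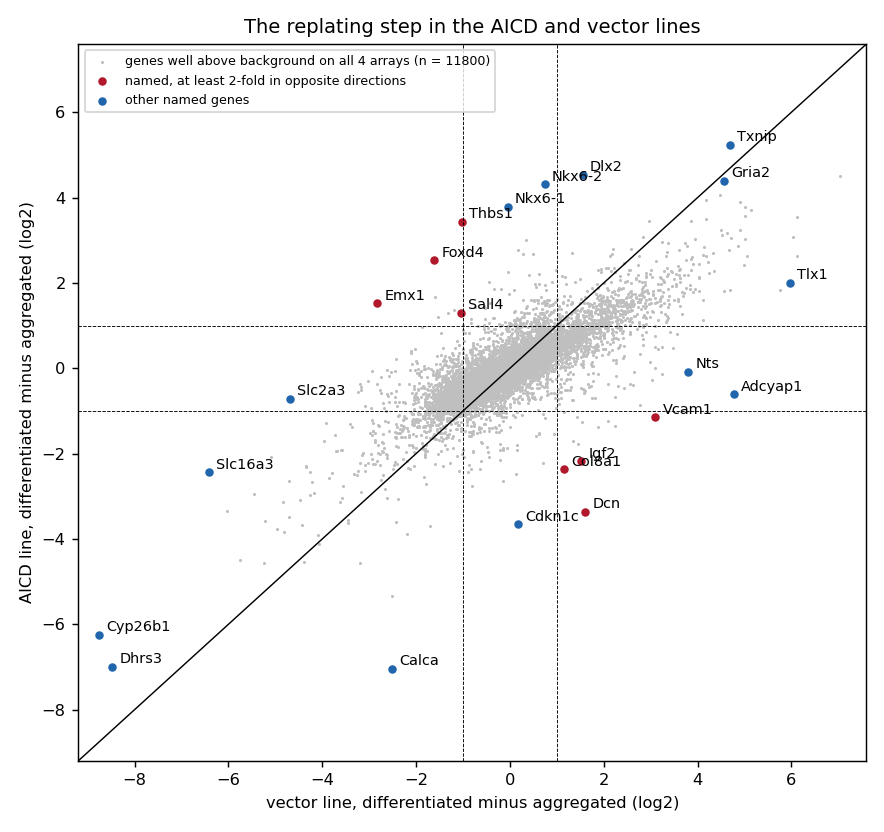
Difference on replating (log2, differentiated minus aggregated) in the vector line (x axis) against the AICD line (y axis) for the 11800 genes well above background on all 4 arrays; the solid line marks equal steps, the dashed lines 2-fold. Red points are the named genes that moved at least 2-fold in opposite directions, such as Dcn at 1.60 and -3.36, and Nkx6-1 lies at -0.05 and 3.78.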

How the data were processed

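Total RNA of P19 cells was labelled with Cy3 and hybridised to 6 single-colour Agilent arrays, per the labels. Intensity is the processed signal of the deposited scanner files, background-subtracted within each array by Agilent Feature Extraction 10.1.1.1, per the file headers; flags for spots well above background come from the same files. The authors also deposited a value per probe, a score whose sign and scale were read by setting it against the scanner files: its size is the log2 signal centred on the 75th percentile of the array and on each probe's median, with values under 1 written as minus the reciprocal. After removal of a constant offset, 91.1% to 99.6% of listed values matched within 0.02. Column medians were 0.97 for AICD aggregated and 1.23 for AICD differentiated; whether a further step lay behind the offset is not known.

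Control spots were left out, spots of a probe averaged, and log2 signals set relative to each array's 75th percentile of 43379 spots. Of 41174 probes, 24844 were named through their accession in RefSeq (GRCm38.p6). A gene took its probe well above background on both arrays with the highest mean over the 6 arrays, or else on 1. The array header gives another genome build, so no probe coordinates are printed. Genes named are the 15 largest differences per direction, the 6 largest bounds, up to 4 members per list and direction, the cell markers, App, and the 8 largest differences between steps per direction. Cyp26a1, Crabp2, Ldha, Gad2, Actb and the 4 genes nearest the 2-fold mark fall outside that rule and were named after their values were seen. The promoter searches for retinoid and hypoxia motifs were also added after the values were seen. Members and lists were chosen with earlier results of these data known. The fold calculation was tested on simulated data. Alternatives were normexp (limma 3.58.1, R 4.3.3, offset 50, on the median spot signal, since the files used hold no mean signal), quantile normalization, another percentile base, other filters, and averaged probes. Python 3.11.15 was used. The number of arrays limits the precision. Some genes that the rule names are not reported here.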

Additional observations from a re-analysis of the deposited data

Results flagged for a closer look

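A set of 8 named genes, all well above background on the 4 arrays, moved at least 2-fold in opposite directions on replating in the AICD and vector lines; with 1 array per line and state, the difference was not tested for any of them. They are among 21 such genes counted over all genes on the 4 arrays; genes whose fold is a bound, such as Col6a1, are not among them. The value given for each is the AICD step minus the vector step on the log2 scale.

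Higher in the AICD step were 4 genes. Thbs1, thrombospondin, rose by 3.43 in the AICD line and fell by 1.02 in the vector line, a gap of 4.45. Emx1, a homeobox gene of the dorsal forebrain, rose by 1.52 and fell by 2.83, a gap of 4.35. Foxd4, a forkhead gene of early neural ectoderm, rose by 2.53 and fell by 1.61, a gap of 4.14. Sall4, a zinc finger factor of pluripotent cells, rose by 1.30 and fell by 1.04, a gap of 2.34, though its probes ranged from -0.37 to 1.30 in the AICD line.

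Lower in the AICD step were the other 4. Dcn fell by 3.36 in the AICD line and rose by 1.60 in the vector line, a gap of -4.96. Vcam1, an adhesion molecule, fell by 1.15 and rose by 3.10, a gap of -4.25. Igf2, an imprinted growth factor, fell by 2.18 and rose by 1.52, a gap of -3.71. Col8a1, a short-chain collagen, fell by 2.37 and rose by 1.15, a gap of -3.52.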

How the results depend on the processing

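With normexp background correction, 468 genes rose and 393 fell in the AICD line, against 946 and 635; with no filter on dim probes 1468 rose and 834 fell. The other alternatives gave 807 to 1068 genes higher and 543 to 710 lower. The share of calls that were higher was 59.8% and ran from 54.4% to 65.9%. In the vector line the counts ran from 1123 to 1918 higher and from 1047 to 1805 lower. Of 299 named genes on both arrays, 169 were at least 2-fold apart, and 126 of these were so under every alternative with a value; Cacna2d2, at -1.16, turned to 1.29 with averaged probes. The causes were not tested. For 35 named genes the authors' deposited values gave both levels, and each difference lay within 0.143 of the main one. Those values come from the same scanner signals and were read by setting them against these signals. The match was therefore fixed in advance and is no separate check of the differences. Under normexp the medians of the transcription factor and axon guidance lists were 0.38 and 0.29, against 0.58 and 0.44. With no filter on dim probes those of the cholinergic and Wnt lists were -0.18 and -0.36, against -0.50 and -0.55. List medians changed sign under some alternative for the pluripotency, Notch, glia, endoderm, endothelium, p53 and imprinted lists. No paired analysis was possible because each line and state has 1 array, and for the same reason no replicate could be left out. Dim probes limit the lists of genes near background, where folds are bounds.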

Other observations

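Of 31 genes of cholesterol and fatty acid synthesis, 6 rose and none fell, and the median difference was 0.66. Cyp51, a demethylase of sterol synthesis, had a difference of 1.18, as did the sterol reductase Tm7sf2. Elovl6, a fatty acid elongase, had 1.17 and Dhcr7, which makes cholesterol, 1.14. In the vector line 3 of the 30 genes on all 4 arrays rose, with a median of 0.45.

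Growth factor genes of the IGF axis moved in both directions, with 4 of 14 higher and 5 lower. Igfbp3 and Igfbp5, which bind IGFs outside cells, rose by 1.53 and 1.52. Igfbp2 fell by 2.04 and Igf1 by 1.54. Among imprinted genes Usp29 went from -2.05 to 0.99, an 8.19-fold rise, and the vector line had a difference of 3.95. The heat shock genes Hspa1a and Hspa1b fell by 2.48 and 2.83, while 3 of 24 stress genes fell in all and none rose. They are near-identical copies whose probes could share signal. Of 18 interferon response genes none was called higher or lower, where 7.36% of all genes rose and 4.94% fell. In a list of this size such shares amount to few genes, so the counts do not set it apart. Only 15 were on both arrays, and the bound of Rsad2, at least 1.63-fold higher, leaves room for a 2-fold rise. No test was run on the interferon response genes with limma or any other tool.

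Myh7, a slow myosin heavy chain, went from -3.49 to 0.05 in the AICD line, an 11.6-fold rise, and rose by 6.13 in the vector line. Of 19 mesoderm and muscle genes 2 rose (10.5%) and 4 fell (21.1%) in the AICD line, beside 7.36% and 4.94% of all genes.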
